A study of Homo sapiens with 4 samples.

Results

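Autophagy and lysosome genes were examined in the human myeloma cell line ARP1 with and without overexpression of RFWD2. The members were the rows of the deposited gene table whose name matched 1 of 39 symbols chosen for their function, and all 39 were found among 58825 genes. They comprised 17 genes of the autophagy machinery, 5 genes of the Atg8 family, 3 cargo receptors, 3 transcription factors of the MiT/TFE family and 11 lysosomal proteins. The choice was by function and not by values in these libraries, but earlier results of these data were known when it was made.

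Multiple myeloma is a tumour of plasma cells, the cells that secrete antibodies, and RFWD2 (current symbol COP1) encodes an E3 ubiquitin ligase, which tags proteins for destruction by the proteasome. The 2 genotypes were RFWD2 overexpression and wild type, both in ARP1 cells and with 2 libraries each. The protocol text names an adipose tissue type, although the sample labels give ARP1 myeloma cells for all 4 libraries. The construct, its promoter, whether the overexpressing cells were 1 clone and whether the wild type cells carried an empty vector are not stated. The series calls the libraries biological repeats without saying that they came from separate cultures, so the spread behind each p-value may be technical only.

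Autophagy encloses cytoplasm in a double membrane, the autophagosome, and delivers it to the lysosome, where acid hydrolases break it down. A kinase complex starts the process, a lipid kinase complex marks the membrane, and ubiquitin-like conjugation enzymes attach small Atg8 proteins to it. Cargo receptors tie ubiquitinated material to those Atg8 proteins. Plasma cells make large amounts of secretory protein and are known to rely on autophagy as well as on the proteasome to dispose of what is misfolded.

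The libraries held 62143098 to 70713792 estimated counts each. Each of the 9 plasma cell markers examined reached 1 FPKM (fragments per transcript length, scaled to the size of the library) in at least 1 library, and their summed level was 1736 to 1905 FPKM in the overexpressing cells versus 1939 to 2262 FPKM in wild type. The summed level of 4 B cell markers was 0.354 to 0.758 FPKM in the overexpressing cells versus 0.797 to 1.07 FPKM in wild type, and that of 4 T cell markers was 0.615 to 0.819 and 0.258 to 1.11 FPKM. Monocyte markers summed to 1.21 to 1.28 FPKM in the overexpressing cells versus 0.125 to 0.463 FPKM in wild type, nearly all CSF1R, with LYZ and FCGR3A listed at 0. Fibroblast markers summed to 0.327 to 0.741 and 0.094 to 0.294 FPKM, all COL1A1. Their part in the results was not tested. The adipocyte markers ADIPOQ, PLIN1, FABP4 and LEP were listed at 0 throughout. RFWD2 was at 13.5 and 13.9 FPKM in overexpression libraries 1 and 2 and at 5.99 and 8.93 FPKM in wild type libraries 1 and 2. The difference was 0.86 ± 0.36 (SE) on the log2 scale and did not pass the edgeR test (adjusted p = 0.9998). The libraries stood apart by replicate number: across 11203 genes the Pearson correlation on the log2 scale of CPM, which are counts relative to each library's total, was 0.96 for the pair numbered 1 and 0.97 for the pair numbered 2, but 0.90 for the overexpression pair and 0.93 for the wild type pair. Genes are not independent replicates, so r serves here only to order the pairs. Genes of the mitochondrial genome held 7.46% and 7.68% of counts in the libraries numbered 1 and 4.96% and 4.27% in those numbered 2, and their part in the results below was not tested.

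Nearly the whole pathway was transcribed in ARP1 cells, at very unequal levels. Of the 39 members, 36 had a mean of at least 1 FPKM and passed the filter on low counts, with 375 to 118417 estimated counts per library. The highest means over the 4 libraries belonged to CTSB at 92.2 FPKM, GABARAP at 71.4 FPKM, LAMP1 at 42.7 FPKM and CTSD at 40.4 FPKM. The lowest among the 36 were PIK3C3 at 1.10 FPKM, ATG14 at 1.32 FPKM and MITF at 1.34 FPKM. The other 3 members, MAP1LC3A, ULK2 and CTSL, did not pass that filter. MAP1LC3A had 0 counts in all libraries, ULK2 had 4 counts in overexpression library 2 and 0 elsewhere, and CTSL had 4 counts in wild type library 2 and 0 elsewhere. A count of 0 allows up to 3 counts, or 0.0424 to 0.0483 CPM depending on the library, and this limit covers counting error only.

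**Figure D1:**
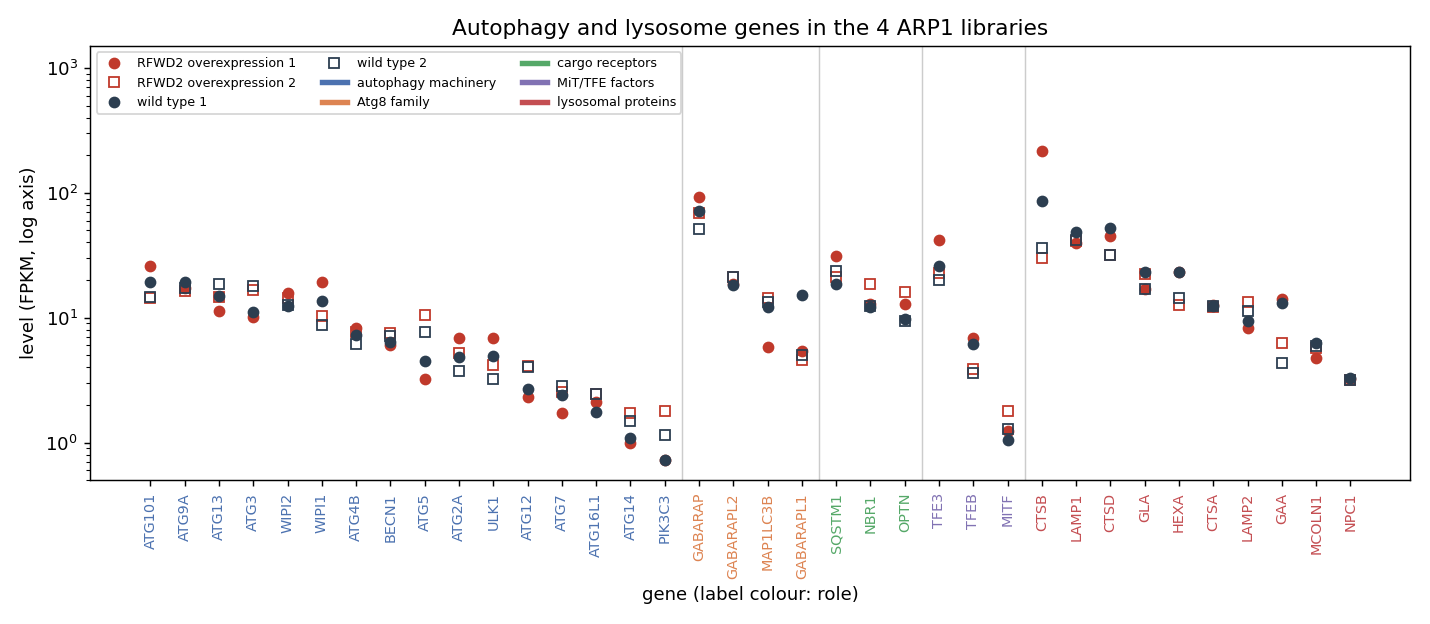
Level of the 36 measured members in each library, in FPKM on a log axis, grouped by role and ordered by mean within a role; circles are libraries numbered 1, squares those numbered 2, red RFWD2 overexpression and dark blue wild type. CTSB spans 29.9 to 216 FPKM over the libraries, whereas NPC1 and CTSA vary by 1.04-fold each.

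No member passed the test between the genotypes. With edgeR's quasi-likelihood test over 18873 genes, called at an adjusted p under 0.05, 0 of the 36 measured members were called, against 0% of all genes. Every member had an edgeR adjusted p of 0.9998, and 0 of the 36 had an unadjusted p under 0.05, against 346 genes or 1.83% of the table. DESeq2 called 0 members as well, with 55 genes or 0.249% called over its table. With 2 libraries against 2, the smallest p an exact two-sided permutation test allows is 0.333, so none was used. Differences between replicate numbers count as spread in the main test, and 0 calls do not show that the members were unchanged.

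The members were balanced around no difference. The median log2 fold change of overexpression against wild type was 0.03 over the 36 members and 0.01 over all genes tested, with 18 members above 0 and 18 below. Among all genes tested, 51.6% were above 0. The range ran from -1.10 for GABARAPL1 to 1.04 for CTSB. The medians by role were 0.07 for the machinery (16 measured), -0.24 for the Atg8 family (4 measured), 0.33 for the receptors, 0.31 for the MiT/TFE factors and -0.07 for the lysosomal proteins (10 measured). Above 0 were 9 of the 16 machinery genes, 1 of the 4 Atg8 genes and 2 of the 10 lysosomal proteins. All 3 receptors and all 3 MiT/TFE factors were above 0. Without overexpression library 1 the median of the MiT/TFE factors was -0.25. In FPKM, 5 members (13.9% of 36) had both overexpression libraries above both wild type libraries, against 9.55% of the 11203 genes tested whose mean reached 1 FPKM. A further 3 members (8.33%) had both below, against 6.44% of those genes. On TMM-scaled CPM, which corrects for the makeup of each library, 3 members lay above (6.82% of genes) and 3 below (9.81%). These shares were near the background and are no result about the members. OPTN and NBR1 lay above, and ATG13 and MCOLN1 below, on both scales.

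**Figure D2:**
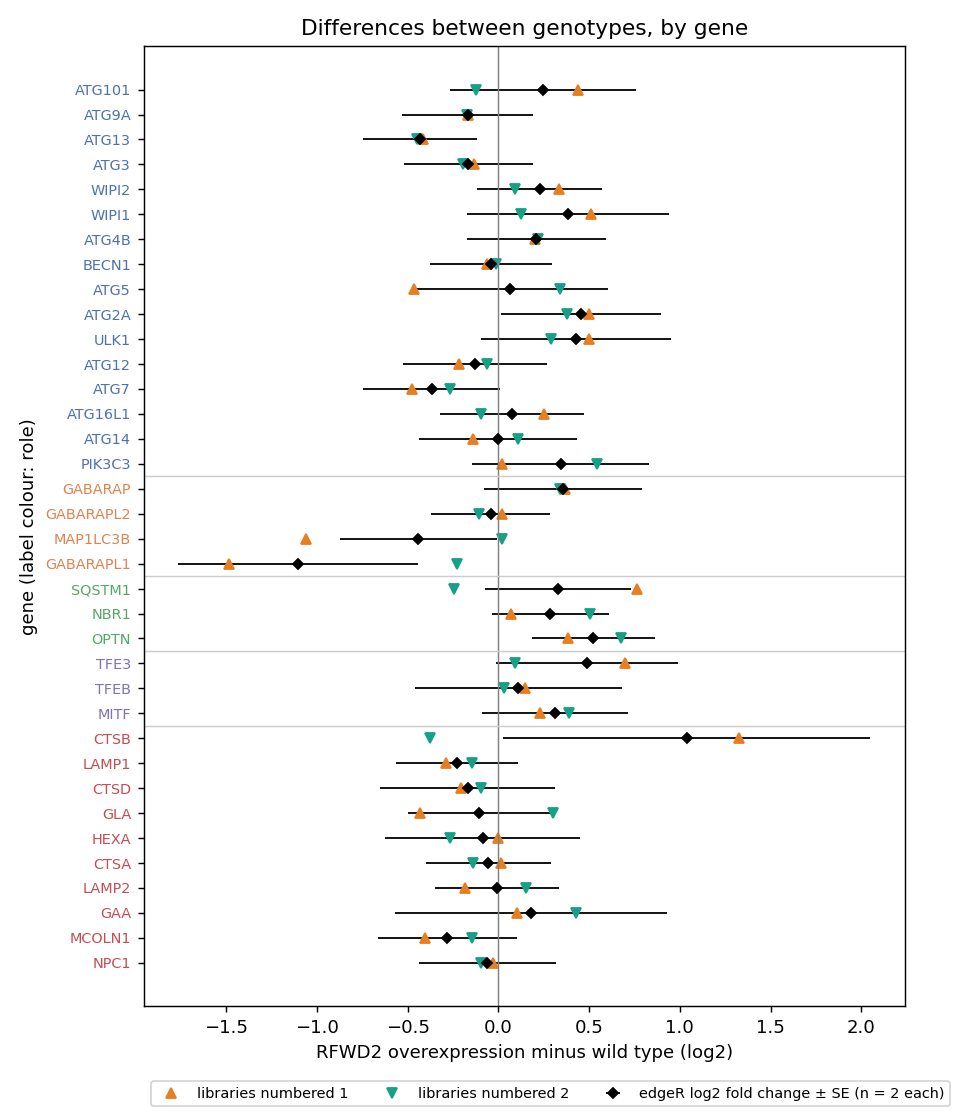
Difference between RFWD2 overexpression and wild type for each measured member on the log2 scale; diamonds are edgeR estimates with bars of 1 SE (n = 2 libraries per genotype), upward triangles the difference between the libraries numbered 1 and downward triangles that between the libraries numbered 2. The estimates spread from -1.10 to 1.04 around a median of 0.03, and the triangles of CTSB, MAP1LC3B, GABARAPL1 and SQSTM1 lie far apart.

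The ULK complex, the kinase that starts autophagosome formation, showed its subunits on different sides. ULK1, its catalytic subunit, was at 6.91 and 4.20 FPKM in the overexpressing cells versus 4.91 and 3.22 FPKM in controls, a log2 fold change of 0.43 ± 0.52 (SE). Each overexpression library was above the wild type library of its number, but the genotypes overlapped, and without overexpression library 1 the value was -0.20. ATG13, the subunit that links the kinase to its scaffold, had 11.2 and 14.6 FPKM in the overexpressing cells versus 15.0 and 18.7 FPKM in controls. Both overexpression libraries were below both controls, by a log2 fold change of -0.43 ± 0.31 (SE), with -0.41 within number 1 and -0.45 within number 2. The ATG13 gene (ENSG00000175224) lies on the plus strand of chromosome 11 from 46617527 to 46674520 in the table's coordinates. ATG101, which binds and stabilizes ATG13, stood at 26.0 and 14.3 FPKM compared with 19.2 and 14.6 FPKM, high in the libraries numbered 1 of either genotype. ULK2, the paralogue of ULK1, was at or near 0, so ULK1 supplied nearly all ULK1 and ULK2 transcripts measured here.

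The genes of the class III lipid kinase complex were low and did not separate by genotype. BECN1, the regulatory subunit Beclin 1, was at 6.07 and 7.53 FPKM in the overexpressing cells versus 6.36 and 7.13 FPKM in controls. The 4 values lay within 1.24-fold of each other, and the log2 fold change was -0.04 ± 0.34 (SE). Its exons share 300 bases (4.68%) with those of PSME3 on the opposite strand, and whether the counting used strand is not stated. PSME3 had 4749 and 9203 estimated counts with overexpression versus 13857 and 19684 in wild type, against at most 4071 for BECN1. CNTD1, also on the opposite strand, shares 795 bases (12.39%) and reached 261 estimated counts. The part of these overlaps in the values of BECN1 was not tested. PIK3C3, the catalytic subunit VPS34, had 0.731 and 1.79 FPKM compared with 0.729 and 1.15 FPKM. ATG14, the subunit that directs the complex to autophagy, had 0.989 and 1.72 FPKM compared with 1.09 and 1.49 FPKM. Both were higher in FPKM in the libraries numbered 2 of either genotype.

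WIPI proteins read the lipid mark left by that complex, ATG2A carries lipids into the growing membrane, and ATG9A scrambles lipids between its leaflets. WIPI2 was at 15.7 and 14.3 FPKM in the overexpressing cells versus 12.4 and 12.6 FPKM in controls, a log2 fold change of 0.23 ± 0.34 (SE). ATG2A was at 6.85 and 5.19 FPKM compared with 4.85 and 3.74 FPKM, a log2 fold change of 0.45 ± 0.44 (SE). For both genes the overexpression libraries lay above the controls in FPKM but overlapped them on TMM-scaled CPM, and WIPI2 had a log2 fold change of -0.03 without overexpression library 1. Leaving out that library also took ATG2A to 0.03. WIPI1 had 19.4 and 10.2 FPKM compared with 13.7 and 8.80 FPKM, again higher in the libraries numbered 1. ATG9A had 17.3 and 16.3 FPKM compared with 19.5 and 17.2 FPKM, with little spread in FPKM. On TMM-scaled CPM it ranged from 81.2 to 122.5 and was lower in the libraries numbered 2 of either genotype.

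The conjugation enzymes prepare the Atg8 proteins and attach them to the lipid phosphatidylethanolamine. ATG4B, the protease that trims Atg8 precursors, was at 8.34 and 7.72 FPKM in the overexpressing cells versus 7.26 and 6.21 FPKM in controls. Its overexpression libraries were the higher ones in FPKM but not on TMM-scaled CPM, and the log2 fold change of 0.21 ± 0.38 (SE) became -0.04 without overexpression library 1. ATG7, the E1-like activating enzyme, had 1.72 and 2.52 FPKM compared with 2.41 and 2.84 FPKM. Its genotypes overlapped in FPKM, while on TMM-scaled CPM both overexpression libraries were below both controls. About 18.1% of ATG7's annotated exonic bases are shared with VGLL4 on the opposite strand, which reached 3740 estimated counts against 2145 for ATG7. ATG3, the E2-like enzyme that transfers Atg8 proteins to the lipid, had 10.2 and 16.7 FPKM compared with 11.2 and 17.9 FPKM.

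ATG5, ATG12 and ATG16L1 form the complex that acts as the E3-like step of the same reaction. ATG5 had 3.25 and 10.4 FPKM in the overexpressing cells versus 4.49 and 7.71 FPKM in controls, a span of 3.21-fold between libraries. ATG12 had 2.31 and 4.13 FPKM compared with 2.69 and 4.03 FPKM, and ATG16L1 had 2.10 and 2.46 FPKM compared with 1.76 and 2.46 FPKM. All 3 genes were higher in library 2 than in library 1 of each genotype in FPKM. On TMM-scaled CPM the same held for ATG5 and ATG12, whereas ATG16L1 was lower in overexpression library 2 than in overexpression library 1.

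Atg8 proteins coat the autophagosome and bind the receptors. GABARAP led this family in every library, at 92.9 and 69.3 FPKM in the overexpressing cells versus 72.1 and 51.3 FPKM in controls. It made up 75.8% and 63.3% of the summed FPKM of the family with overexpression and 61.3% and 56.4% in wild type, although its own FPKM overlapped between the genotypes. GABARAPL2 was the steadiest, at 18.5 and 21.1 FPKM compared with 18.3 and 21.2 FPKM. MAP1LC3B, the LC3 gene behind the usual marker of autophagosomes, had 5.83 and 14.5 FPKM compared with 12.2 and 13.4 FPKM. Overexpression library 1 alone was low. The log2 fold change of -0.44 ± 0.43 (SE) was -1.06 within number 1 and 0.02 within number 2, and -0.04 without overexpression library 1.

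GABARAPL1 (ENSG00000139112; plus strand of chromosome 12, 10212458 to 10223128) encodes an Atg8 protein closely related to GABARAP. It had 5.38 and 4.55 FPKM in the overexpressing cells versus 15.1 and 4.996 FPKM in controls. Wild type library 1 alone was high, and the highest library was 3.33 times the lowest. Without that library the log2 fold change was 0.09, against -1.10 ± 0.66 (SE) with all libraries, so the lowest value among the members rested on it. Its unadjusted p, 0.147 with edgeR, was the smallest among the members. MAP1LC3A was at 0 counts in all libraries, so that within the LC3 branch of the members the transcripts came from MAP1LC3B.

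**Figure D3:**
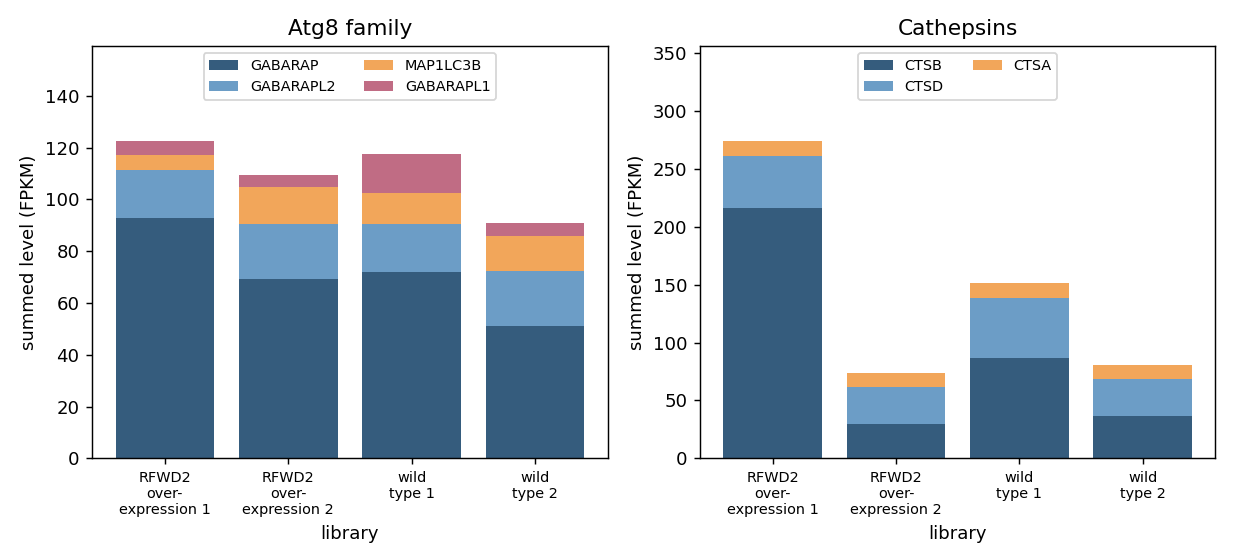
Summed FPKM of the Atg8 family (left) and of the cathepsins CTSB, CTSD and CTSA (right) in each library, with each gene as a coloured segment. The Atg8 sum ran from 90.9 to 123 FPKM, mostly GABARAP, and the cathepsin sum from 73.9 to 274 FPKM, with CTSB making up 78.8% of it in overexpression library 1 and 40.5% in overexpression library 2.

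Of the cargo receptors, OPTN and NBR1 were higher in both overexpression libraries and SQSTM1 was not. OPTN (optineurin), a receptor in the clearance of mitochondria and bacteria, had 12.8 and 15.9 FPKM in the overexpressing cells versus 9.78 and 9.32 FPKM in controls. Its log2 fold change was 0.52 ± 0.34 (SE), with 0.39 within number 1 and 0.68 within number 2, and ran from 0.38 to 0.68 when each library was left out in turn. OPTN (ENSG00000123240) lies on the plus strand of chromosome 10 from 13099449 to 13138308. Its exons share 147 bases (2.86%) with those of CCDC3 on the opposite strand. CCDC3 had 833 and 1319 estimated counts with overexpression versus 679 and 474 in wild type. NBR1, a receptor for ubiquitinated aggregates and peroxisomes, had 12.8 and 18.8 FPKM compared with 12.2 and 12.4 FPKM. Its overexpression libraries lay above the controls, by a small margin in library 1, and the log2 fold change was 0.29 ± 0.32 (SE). SQSTM1, encoding the receptor p62, had 31.4 and 21.1 FPKM compared with 18.6 and 23.4 FPKM. Overexpression library 1 was highest and wild type library 1 lowest, so the log2 fold change of 0.33 ± 0.40 (SE) was 0.76 within number 1, -0.25 within number 2 and -0.21 without overexpression library 1. About 20.7% of SQSTM1's annotated exonic bases are shared with MRNIP on the opposite strand, which reached 1412 estimated counts against 17740 for SQSTM1.

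TFEB, TFE3 and MITF are related transcription factors that switch on lysosome and autophagy genes when nutrients run short. TFE3 was the most abundant of the family here, at 78.1% to 83.8% of its summed FPKM. It had 41.8 and 22.8 FPKM in the overexpressing cells versus 25.8 and 20.1 FPKM in controls, highest in overexpression library 1. In both genotypes library 1 was the higher. TFEB had 6.84 and 3.90 FPKM compared with 6.19 and 3.58 FPKM, a log2 fold change of 0.11 ± 0.57 (SE). Within each genotype its library 1 was the higher, so the number separated its libraries and the genotype did not. MITF had 1.23 and 1.80 FPKM compared with 1.05 and 1.29 FPKM, which overlapped in FPKM and lay above the controls on TMM-scaled CPM.

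The factors of this family bind the motif TCACGTG, and promoters of lysosomal genes are known for it. The window from 250 bases before to 50 bases after each RefSeq start (GRCh38.p14) was searched on both strands for TCACGTG, whose reverse complement is CACGTGA. Entries were matched for 35 members, all but LAMP2, CTSB, HEXA and MAP1LC3A. The motif occurred in 7 of the 35 (20%), against 4.49% of 27305 genes. They were LAMP1, CTSA, CTSD, GAA and MCOLN1, which are 5 of the 8 lysosomal members matched, and ATG3 and ATG14 of the machinery. The shorter core CACGTG, contained in that motif, was in the same 7 members and in 8.77% of genes. The stretches of the 5 lysosomal genes are shown 5′ to 3′ on the gene's strand, with each whole match to TCACGTG or CACGTGA in capitals.
LAMP1, chr13:113297006-113297092, plus strand: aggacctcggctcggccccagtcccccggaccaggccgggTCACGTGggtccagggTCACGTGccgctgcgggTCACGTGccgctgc
CTSA, chr20:45891252-45891338, plus strand: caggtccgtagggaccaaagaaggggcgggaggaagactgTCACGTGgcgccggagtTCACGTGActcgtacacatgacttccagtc
CTSD, chr11:1763928-1764014, minus strand: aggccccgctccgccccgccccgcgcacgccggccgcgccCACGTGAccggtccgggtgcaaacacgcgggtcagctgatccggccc
GAA, chr17:80101464-80101550, plus strand: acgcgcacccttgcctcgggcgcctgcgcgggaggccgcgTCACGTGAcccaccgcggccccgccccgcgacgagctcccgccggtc
MCOLN1, chr19:7522542-7522628, plus strand: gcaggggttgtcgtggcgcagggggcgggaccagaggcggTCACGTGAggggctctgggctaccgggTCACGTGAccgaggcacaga
LAMP1 held 6 such sites in its whole window, of which 3 are in the stretch shown. CTSA and MCOLN1 held 2 sites each and CTSD held 1, all shown. GAA held 2, of which 1 is in the stretch shown. A match is only a description of the letters. The 7 members with the motif had a median log2 fold change of -0.17, with 6 of them below 0, among them ATG14 at -0.0016. The 26 measured members without it had a median of 0.16, with 10 below 0. Over all genes tested, 9128 of 18873 were below 0. Of the 7, only MCOLN1 kept its sign when each library was left out in turn. Neither median was tested. The groups with and without the motif also differ in role, since 5 of the 7 are lysosomal proteins. Of the 10 lysosomal proteins measured, 8 were below 0, among them GLA at -0.11 and NPC1 at -0.06, which lack the motif. Motif and role cannot be told apart here.

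Among proteins of the lysosomal membrane, LAMP1 and MCOLN1 were lower in both overexpression libraries, by margins within the spread. LAMP1, a major glycoprotein of that membrane that made up 75.4% to 83.8% of the summed FPKM of LAMP1 and LAMP2, had 39.4 and 40.9 FPKM in the overexpressing cells versus 48.4 and 42.3 FPKM in controls. Its log2 fold change was -0.23 ± 0.34 (SE), and its genotypes overlapped on TMM-scaled CPM. LAMP2, which is needed for autophagosomes to mature, was at 8.20 and 13.4 FPKM compared with 9.34 and 11.3 FPKM. MCOLN1, the calcium channel mucolipin 1, had 4.75 and 5.77 FPKM compared with 6.30 and 5.97 FPKM, a log2 fold change of -0.28 ± 0.38 (SE). The MCOLN1 model (ENSG00000090674; plus strand of chromosome 19, 7522624 to 7534009) overlaps PNPLA6 on the same strand. Summed with that more abundant neighbour, the value was 0.27, but the annotated exons of the pair share only 6 bases. NPC1, which exports cholesterol from the lysosome, was at 3.22 and 3.18 FPKM compared with 3.30 and 3.18 FPKM. That near constancy held in FPKM only, since on TMM-scaled CPM NPC1 ranged from 32.5 to 42.7.

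Of the 36 measured members, the protease gene CTSB had the widest spread between libraries. CTSB, a cysteine protease, had 216 and 29.9 FPKM in the overexpressing cells versus 86.4 and 36.4 FPKM in controls. The libraries numbered 1 were far above those numbered 2, most of all overexpression library 1, and the highest library was 7.22 times the lowest. The log2 fold change of 1.04 ± 1.01 (SE) was 1.33 within number 1 and -0.38 within number 2. Without overexpression library 1 it was -1.31. Without overexpression library 2 it was 1.89, the only setting in which any member was called (edgeR adjusted p = 0.0171), and that fit set 1 library numbered 1 against wild type libraries of both numbers. Under the other alternatives its adjusted p ran from 0.668 to 1.0.

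CTSD, an aspartic protease, had 45.4 and 31.9 FPKM in the overexpressing cells versus 52.5 and 32.0 FPKM in controls, a log2 fold change of -0.17 ± 0.48 (SE). CTSA, the protective protein of the galactosidase and sialidase complex, was at 12.6 and 12.1 FPKM compared with 12.5 and 12.4 FPKM. It varied by 1.04-fold in FPKM, but ranged from 74.5 to 98.5 on TMM-scaled CPM. CTSL, a cysteine protease like CTSB, was at or near 0. Of the glycosidases, HEXA, the alpha subunit of beta-hexosaminidase A, had 23.1 and 12.6 FPKM compared with 23.2 and 14.2 FPKM. GAA, the acid alpha-glucosidase that breaks down glycogen, had 14.0 and 6.27 FPKM compared with 13.1 and 4.36 FPKM. In CTSD, HEXA and GAA library 1 was the higher in both genotypes. GLA, the alpha-galactosidase A, did not follow that pattern, with 17.1 and 22.2 FPKM compared with 23.1 and 16.9 FPKM.

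The replicate number separated the members more than the genotype did. The median absolute difference between libraries of different number within a genotype was 0.43 on the log2 CPM scale over the 36 members, and that between genotypes within a number was 0.22. Over genes whose mean reached 1 FPKM the same medians were 0.56 and 0.24. In 22 members library 2 was below library 1 in both genotypes, against 42.3% of those genes, and in 8 it was above in both, against 39.3%. Among the lysosomal proteins 8 of the 10 measured were lower in number 2 in both genotypes. These counts are on TMM-scaled CPM and were not made in FPKM. The TMM factors were 0.903 and 0.906 for the libraries numbered 1 and 1.14 and 1.08 for those numbered 2. In FPKM, BECN1 and GABARAPL2 were higher in number 2 of both genotypes, though counted here as lower. LAMP1 and MCOLN1, also counted as lower, were higher in FPKM in overexpression library 2 than in overexpression library 1. The median difference of number 2 from number 1 over the members was -0.33 with overexpression and -0.30 in wild type, against -0.08 and -0.0040 over those genes. The labels do not say what the replicate numbers stand for, and these differences were not tested.

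**Figure D4:**
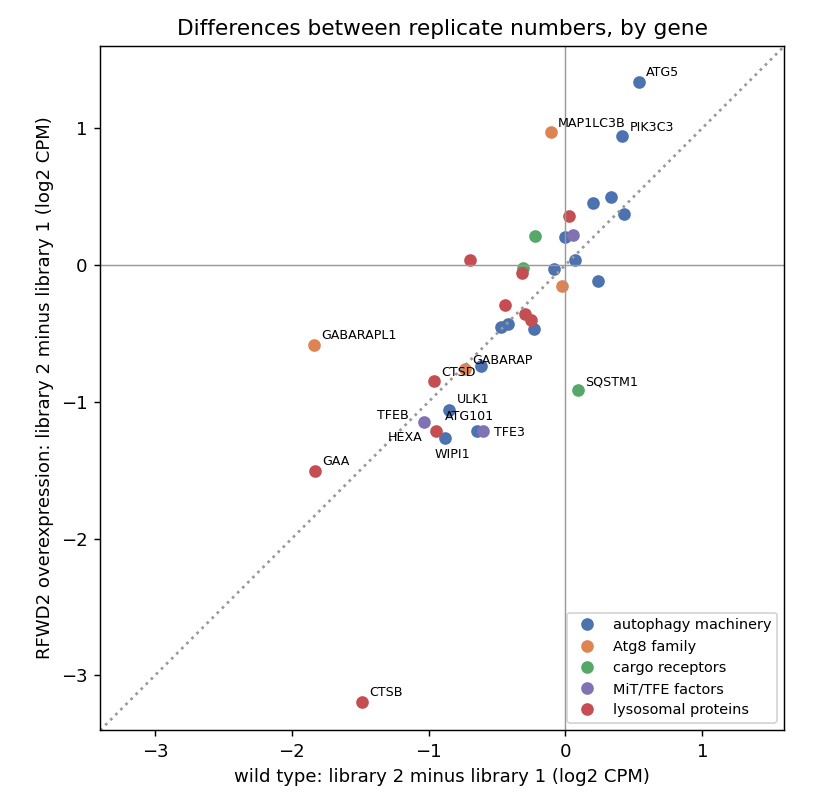
Difference of library 2 from library 1 for each measured member, in wild type (horizontal) and with RFWD2 overexpression (vertical), on the log2 CPM scale; colours give the role and the dotted line marks equal differences. Of the 36 members 22 lie in the lower left and 8 in the upper right, with CTSB at -1.49 and -3.19 and GAA at -1.83 and -1.50. The CPM are TMM-scaled, and some members near 0, such as BECN1 and GABARAPL2, have the other sign in FPKM.

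Further genes of the pathway came from 8 lists by role, which held 147 symbols. Of these 146 were found and 142 passed the filter on low counts. None passed the test at an adjusted p under 0.05 with edgeR, and 2 (YKT6 and LAMP3) had an unadjusted p under 0.05, against 1.83% of all genes. That count is no higher than the background. The median log2 fold change over the 142 genes was 0.05, with 79 above 0 and 63 below.

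The lowest of these values belonged to YKT6, a SNARE protein of autophagosome fusion with the lysosome. It had 18.9 and 18.4 FPKM in the overexpressing cells versus 37.99 and 41.6 FPKM in controls, a log2 fold change of -1.13 ± 0.34 (SE). Both overexpression libraries were well below both controls, but the edgeR adjusted p was 0.9998. In the same fusion list of 15 genes, PLEKHM1, an adaptor between lysosomes and autophagosomes, was at 5.94 and 4.68 FPKM compared with 3.59 and 3.68 FPKM. VPS18, a core subunit of the tethering complexes, was at 11.8 and 10.8 FPKM compared with 8.59 and 8.28 FPKM.

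The V-ATPase, the proton pump that acidifies the lysosome, had 12 of 17 genes below 0 and a median of -0.09. Over all genes tested, 9128 of 18873 were below 0. In FPKM, 2 of the 17 (11.8%) had both overexpression libraries below both controls, against 7.725% of all genes tested. Among the genes tested whose mean reached 1 FPKM, the background used for the members, that share was 6.44%. The 3 genes named next were picked by their unadjusted p. ATP6V0C, a subunit of its proton-carrying ring, was at 33.3 and 56.2 FPKM in the overexpressing cells versus 75.9 and 69.8 FPKM in controls. Both overexpression libraries were below the controls, with a log2 fold change of -0.79 ± 0.36 (SE). ATP6V1C1 was at 1.39 and 2.67 FPKM compared with 1.97 and 4.44 FPKM, and ATP6AP2, an accessory subunit, at 2.60 and 3.26 FPKM compared with 3.27 and 4.33 FPKM. ATP6V1C1 overlapped between the genotypes, whereas both overexpression libraries of ATP6AP2 were just below both controls.

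Of 40 further hydrolases measured, 25 were above 0 and 15 below, with a median of 0.07. CTSS, a cysteine protease of antigen processing, was at 1.32 and 1.91 FPKM in the overexpressing cells versus 0.950 and 0.795 FPKM in controls. FUCA1, the lysosomal fucosidase, was at 8.97 and 6.50 FPKM compared with 4.82 and 3.54 FPKM, and the protease gene CTSF at 14.4 and 7.45 FPKM compared with 6.82 and 3.06 FPKM. All 3 had both overexpression libraries above both controls in FPKM, and CTSF overlapped on TMM-scaled CPM. Of the 40 hydrolases, 8 (20%) lay above in this way in FPKM and 2 (5%) below, against 12.77% and 7.725% of all genes tested. Among the genes tested whose mean reached 1 FPKM, the background used for the members, these shares were 9.55% and 6.44%. The same count was not made on TMM-scaled CPM. The 3 genes named were picked by their unadjusted p. Of the 25 membrane and sorting genes, LAPTM4B had 1.59 and 2.09 FPKM compared with 0.849 and 0.791 FPKM. LAMP3 had the other unadjusted p under 0.05 (0.0471 with edgeR) and stayed under 1 FPKM on average. IGF2R, the receptor that sorts mannose 6-phosphate tagged enzymes, had 9.40 and 14.1 FPKM compared with 13.9 and 16.1 FPKM, and GNPTG, a subunit of the enzyme that makes that tag, had 7.96 and 5.997 FPKM compared with 10.7 and 7.501 FPKM.

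Further initiation, conjugation, receptor and TFEB control genes gave medians from 0.03 to 0.10. VMP1, an endoplasmic reticulum protein of autophagosome formation, was at 10.7 and 25.4 FPKM in the overexpressing cells versus 7.69 and 12.6 FPKM in controls, and TMEM41B, which acts with it, at 2.62 and 3.68 FPKM compared with 1.89 and 2.74 FPKM. ULK3 was at 11.1 and 8.31 FPKM compared with 8.62 and 7.02 FPKM. Each of these 3 genes was higher with overexpression within both numbers in FPKM, where the genotypes overlapped. On TMM-scaled CPM both overexpression libraries lay above both controls for VMP1 and TMEM41B, and ULK3 still overlapped. The mitophagy receptors FUNDC1 and BNIP3L were on the other side, FUNDC1 at 2.71 and 3.99 FPKM compared with 3.91 and 5.97 FPKM and BNIP3L at 4.34 and 5.17 FPKM compared with 5.34 and 7.63 FPKM. BNIP3L was lower in both overexpression libraries on either scale, and FUNDC1 overlapped in FPKM but not on TMM-scaled CPM. CALCOCO1, a receptor for endoplasmic reticulum, was at 16.2 and 7.85 FPKM compared with 10.7 and 4.73 FPKM. Of the conjugation genes, MAP1LC3B2, a near copy of MAP1LC3B whose reads the counting could split, was at 0.867 and 1.33 FPKM compared with 1.79 and 1.15 FPKM. ATG16L2 was at 3.11 and 1.73 FPKM compared with 2.36 and 1.23 FPKM, and WDR45B, a WIPI protein, at 9.22 and 11.3 FPKM compared with 9.80 and 12.7 FPKM.

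MTOR, the kinase that holds TFEB in the cytoplasm when nutrients are plentiful, was at 4.01 and 8.38 FPKM in the overexpressing cells versus 5.76 and 8.50 FPKM in controls. Its partner RPTOR was at 2.23 and 2.79 FPKM compared with 2.53 and 3.34 FPKM. RRAGA, a GTPase that brings both to the lysosome, was at 17.2 and 24.6 FPKM compared with 14.6 and 19.5 FPKM. All 3 were higher in FPKM in library 2 than in library 1 of each genotype, but on TMM-scaled CPM RPTOR was not with overexpression.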

How the data were processed

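Poly(A)-selected RNA of 4 ARP1 libraries was sequenced as paired ends, per the labels' protocols. Groups came from the genotype labels and replicate numbers from the titles. The deposited table gives whole-number counts and FPKM per gene and sample, per the file headers. Per the file headers these are counts, used here as estimated counts, since 35.4% to 36.0% of those from 1 to 19 are multiples of 4. A placeholder of 0.0001 in the deposited FPKM columns was set to 0. The submitters' processing notes list Bowtie 0.12.2, StringTie 1.3.0 and HISAT2 2.0, with no role, and a mouse build, mm8. The table's identifiers are human: all 39 members occur in GENCODE 29 (GRCh38) on the same chromosome and strand, 36 with the same start or end. Neither the counting tool and annotation nor any use of strand is stated. Of the members, 14 share annotated exonic bases with a gene that reaches 100 estimated counts.

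The test was the quasi-likelihood test of edgeR 4.0.16 in R 4.3.3, run on estimated counts after filterByExpr with TMM factors and without a block; p-values were adjusted by Benjamini-Hochberg across 18873 genes. SE is the log2 fold change divided by the square root of F. Differences within a number use log2 CPM, adding a prior count of 2. Alternatives were DESeq2 1.42.0, no filter, a replicate block, counts divided by 4, limma 3.58.1 on log2(FPKM + 1) and log2(FPKM + 0.1), summed overlapping models and leaving out each library. The fits were tested on simulated data, in which the main edgeR test missed most of the smaller changes. Both tools made some false calls there, DESeq2 more of them. Members and lists were chosen with earlier results of these data known. All 39 members are accounted for. Fold changes are printed for those whose genotypes did not overlap in FPKM and for ULK1, BECN1, SQSTM1, MAP1LC3B, TFEB, LAMP1, CTSD and CTSB. The fold change of GABARAPL1 was added after its value was seen. The lists name up to 3 genes each by the smallest unadjusted p among those whose mean reached 1 FPKM, a few of them with fold changes, and LAMP3 was added after its p was seen.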

Additional observations from a re-analysis of the deposited data

How the results depend on the processing

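No member was called under any alternative except CTSB without overexpression library 2, so the count ran from 0 to 1 over the fits that leave out a library. Calls over all genes went from 0 to 55 with DESeq2, 8 without the low-count filter and 73 to 183 with a library left out. The median over the members ran from -0.16 to 0.21 then, that of the machinery from -0.0348 to 0.0561 and that of the lysosomal proteins from -0.42 to 0.19. With limma the lysosomal median was -0.0174 on log2(FPKM + 1) and -0.0189 on log2(FPKM + 0.1). On TMM-scaled CPM, chosen after seeing the data, 3 members in place of 5 had both overexpression libraries on top. With the replicate number as a block, 0 genes were called, the medians were -0.0158 over the members and -0.064 over the lysosomal proteins, and ATG5 was -0.0585. The deviations of same-numbered libraries from their genotype's mean correlated at r = 0.59 over 11203 genes. No label says what the numbers share.

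Values near 0 changed sign between scales. ATG14 was 0.0086 with counts divided by 4, 0.0266 with limma on log2(FPKM + 1) and 0.0313 on log2(FPKM + 0.1). LAMP2 was 0.0011, 0.029 and 0.0287 in the same order. With the same pair of limma fits BECN1 was 0.0055 and 0.0055 and GABARAPL2 was 0.0018 and 0.0019, and ATG5 was -0.0117 on log2(FPKM + 0.1). MCOLN1 was 0.27 when summed with PNPLA6.

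When each library was left out in turn, 9 of the 36 members kept their sign, namely ATG13, ATG7, MAP1LC3B, MCOLN1, BECN1, ATG2A, NBR1, OPTN and MITF. The other 27 changed sign, with these ranges of log2 fold change: ULK1 -0.20 to 0.91, ATG101 -0.49 to 0.73, ATG14 -0.24 to 0.20, PIK3C3 -0.20 to 0.73, WIPI1 -0.39 to 0.89, WIPI2 -0.0309 to 0.45, ATG9A -0.40 to 0.0514, ATG3 -0.37 to 0.0634 and ATG4B -0.0387 to 0.46. For ATG5 they were -0.75 to 0.58, for ATG12 -0.39 to 0.0941, for ATG16L1 -0.0426 to 0.20, for GABARAP -0.0779 to 0.77, for GABARAPL1 -1.75 to 0.0865, for GABARAPL2 -0.12 to 0.0355, for SQSTM1 -0.21 to 0.72, for TFEB -0.58 to 0.71 and for TFE3 -0.25 to 0.97. For LAMP1 they were -0.43 to 0.0054, for LAMP2 -0.19 to 0.16, for CTSA -0.27 to 0.14, for CTSB -1.31 to 1.96, for CTSD -0.66 to 0.38, for HEXA -0.82 to 0.46, for GLA -0.41 to 0.28, for GAA -0.76 to 1.36 and for NPC1 -0.26 to 0.11. The cause was not tested.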
